A study of Mus musculus with 24 samples.

Results

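The 10 genes described here are feedback regulators of the mitogen-activated protein (MAP) kinase pathways. They are the dual-specificity phosphatase genes Dusp1, Dusp4, Dusp5, Dusp6 and Dusp10, the Sprouty genes Spry1, Spry2 and Spry4, and the Spred genes Spred1 and Spred2. They were chosen by name, as the entries of the count table with these symbols, and each symbol matched 1 of the 56748 genes in the table. All 10 had enough reads to be tested in every comparison, with between 156 and 5944 counts in a library.

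When a growth factor binds its receptor tyrosine kinase, Ras activates the kinases Raf, MEK and ERK in turn, and ERK then drives transcription of early response genes. Among the genes that ERK turns on are its own inhibitors. Sprouty and Spred proteins act near the membrane, between the receptor and Raf, and DUSP proteins remove the activating phosphates from the MAP kinases themselves. In skeletal muscle, fibroblast growth factor signalling through this cascade keeps myoblasts dividing, and Spry1 is known for its part in the return of muscle stem cells to quiescence. Transcript levels of these genes are often read as a record of recent ERK signalling, but ERK activity itself was not measured here.

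The study asked how muscle cells exposed to aldosterone, a mineralocorticoid hormone, signal to fibroblasts. Myotubes, the multinucleate cells formed by fusion of myoblasts, and fibroblasts were primary cultures from the hindlimbs of newborn mice under 5 days old. Mice were mdx (C57BL/10-Dmdmdx), in which the dystrophin gene Dmd is mutated and which serve as a model of Duchenne muscular dystrophy, or C57 (C57BL/10). The 4 myotube groups were mdx with 1 µM aldosterone, mdx with vehicle (0.001% DMSO), C57 with 1 µM aldosterone and C57 with vehicle. Treatment lasted 48 h in medium with charcoal-stripped serum, a treatment that removes steroids, and was followed by 15 h in fresh medium before lysis. That medium was the conditioned medium. The 4 fibroblast groups were mdx and C57 fibroblasts kept for 24 h in the conditioned medium of aldosterone-treated or vehicle-treated myotubes of their own genotype, so the genotype of a fibroblast and of its medium cannot be told apart. Myoblasts had been expanded with basic fibroblast growth factor, which was withdrawn for differentiation. Each group had 3 libraries, numbered as biological replicates, and bulk poly(A) RNA was sequenced. The labels do not say whether replicates of a group came from separate animals, so p-values measure the spread between these cultures.

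Total counts per library were between 14133165 and 31144746 in myotubes and between 16964960 and 42698139 in fibroblasts. Dmd was at 32.6 to 64.8 CPM (read counts scaled to library size) in mdx myotubes and at 331 to 462 CPM in C57 myotubes. In fibroblasts Dmd was at 7.67 to 13.4 CPM in mdx and at 24.5 to 39.8 CPM in C57 libraries. The genotype labels and Dmd levels went together in every library. The summed level of 10 myotube markers was 22694 to 37216 CPM in myotube libraries and 15.1 to 153 CPM in fibroblast libraries. The summed level of 10 fibroblast markers was 289 to 3321 CPM in myotube libraries and 12275 to 21499 CPM in fibroblast libraries. Of the fibroblast list, Tcf21 had 0 counts in every library and Pi16 had 0 to 12 counts, and neither was tested in either cell type.

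The stretches just before the transcription starts of 4 members are shown because Dusp6, Spry2 and Dusp5 gave the clearest hormone response in myotubes and Dusp1 is the textbook immediate early phosphatase. Each line is the 250 bases before the start, read 5′ to 3′ on the gene's strand, from RefSeq with build GRCm38.p6. The count table uses build mm39, so these positions do not apply to it. Capitals mark the 3 matches to the motifs searched, 2 in Dusp5 and 1 in Dusp1.
Dusp6, chr10:99262981-99263230, plus strand: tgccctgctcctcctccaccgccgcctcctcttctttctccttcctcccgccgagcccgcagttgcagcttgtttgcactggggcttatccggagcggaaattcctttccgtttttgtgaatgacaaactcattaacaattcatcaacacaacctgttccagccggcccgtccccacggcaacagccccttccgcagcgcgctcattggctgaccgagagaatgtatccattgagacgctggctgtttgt
Spry2, chr14:105896820-105897069, minus strand: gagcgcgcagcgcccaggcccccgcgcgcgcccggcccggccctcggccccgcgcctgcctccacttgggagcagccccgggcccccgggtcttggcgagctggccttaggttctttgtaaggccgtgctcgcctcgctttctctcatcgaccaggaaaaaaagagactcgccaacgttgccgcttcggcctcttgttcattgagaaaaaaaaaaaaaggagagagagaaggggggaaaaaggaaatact
Dusp5, chr19:53528895-53529144, plus strand: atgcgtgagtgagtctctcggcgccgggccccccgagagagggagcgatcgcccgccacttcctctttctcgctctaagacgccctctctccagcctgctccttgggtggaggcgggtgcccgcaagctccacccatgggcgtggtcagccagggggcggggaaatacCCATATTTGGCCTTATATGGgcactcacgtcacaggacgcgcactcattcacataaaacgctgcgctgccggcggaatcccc
Dusp1, chr17:26508473-26508722, minus strand: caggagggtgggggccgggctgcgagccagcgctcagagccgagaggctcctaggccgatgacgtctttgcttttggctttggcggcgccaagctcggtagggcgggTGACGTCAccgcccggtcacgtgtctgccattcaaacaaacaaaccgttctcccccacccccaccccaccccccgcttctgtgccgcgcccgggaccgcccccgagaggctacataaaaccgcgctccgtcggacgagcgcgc
RefSeq entries were at hand for 8 of the 10 members, and Dusp4 and Spry4 are named only. Both strands of each window were searched. The cyclic AMP response element TGACGTCA was found in 1 of the 8 windows, at -143 to -136 of Dusp1, and in 1.55% of the 32851 promoter windows of the table. The CArG box, the motif bound by serum response factor, was found in 1 of the 8, in Dusp5. There 2 boxes lay end to end at -82 to -73 and at -72 to -63, and 1.47% of all windows held a CArG box. The AP-1 motif (TGACTCA or TGAGTCA), the ETS motif CCGGAA and the corticosteroid receptor palindrome were in 0 of the 8 windows, against 4.46%, 12% and 0.00913% of all windows. A match is a match of letters and no measurement of binding.

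The DUSP genes Dusp4 and Dusp6 were the most abundant members in myotubes, and Dusp1 and Spred1 in fibroblasts. Levels between genes are compared as deposited FPKM, which are scaled by gene length. In vehicle-treated C57 myotubes the order of mean FPKM was Dusp4, Dusp6, Spry2, Dusp10, Dusp1, Spry1, Spred1, Dusp5, Spred2 and Spry4. The means ran between 43.1 ± 3.24 FPKM for Dusp4 and 2.42 ± 0.194 FPKM for Spry4 (SD, n = 3). In C57 fibroblasts in vehicle medium the order was Dusp1, Spred1, Dusp5, Spry2, Spred2, Dusp6, Dusp4, Spry4, Dusp10 and Spry1, with means between 29.4 ± 11.5 FPKM for Dusp1 and 4.44 ± 1.85 FPKM for Spry1 (SD, n = 3). Of the 9 neighbouring pairs in this order, the libraries of 4 overlapped in C57 myotubes, those among Spry2, Dusp10 and Dusp1 and among Spred1, Dusp5 and Spred2. In C57 fibroblasts 6 overlapped, those among Dusp5, Spry2, Spred2 and Dusp6 and among Dusp4, Spry4, Dusp10 and Spry1. In mdx cells with vehicle 6 of 9 overlapped in myotubes and 6 of 9 in fibroblasts.

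**Figure D1:**
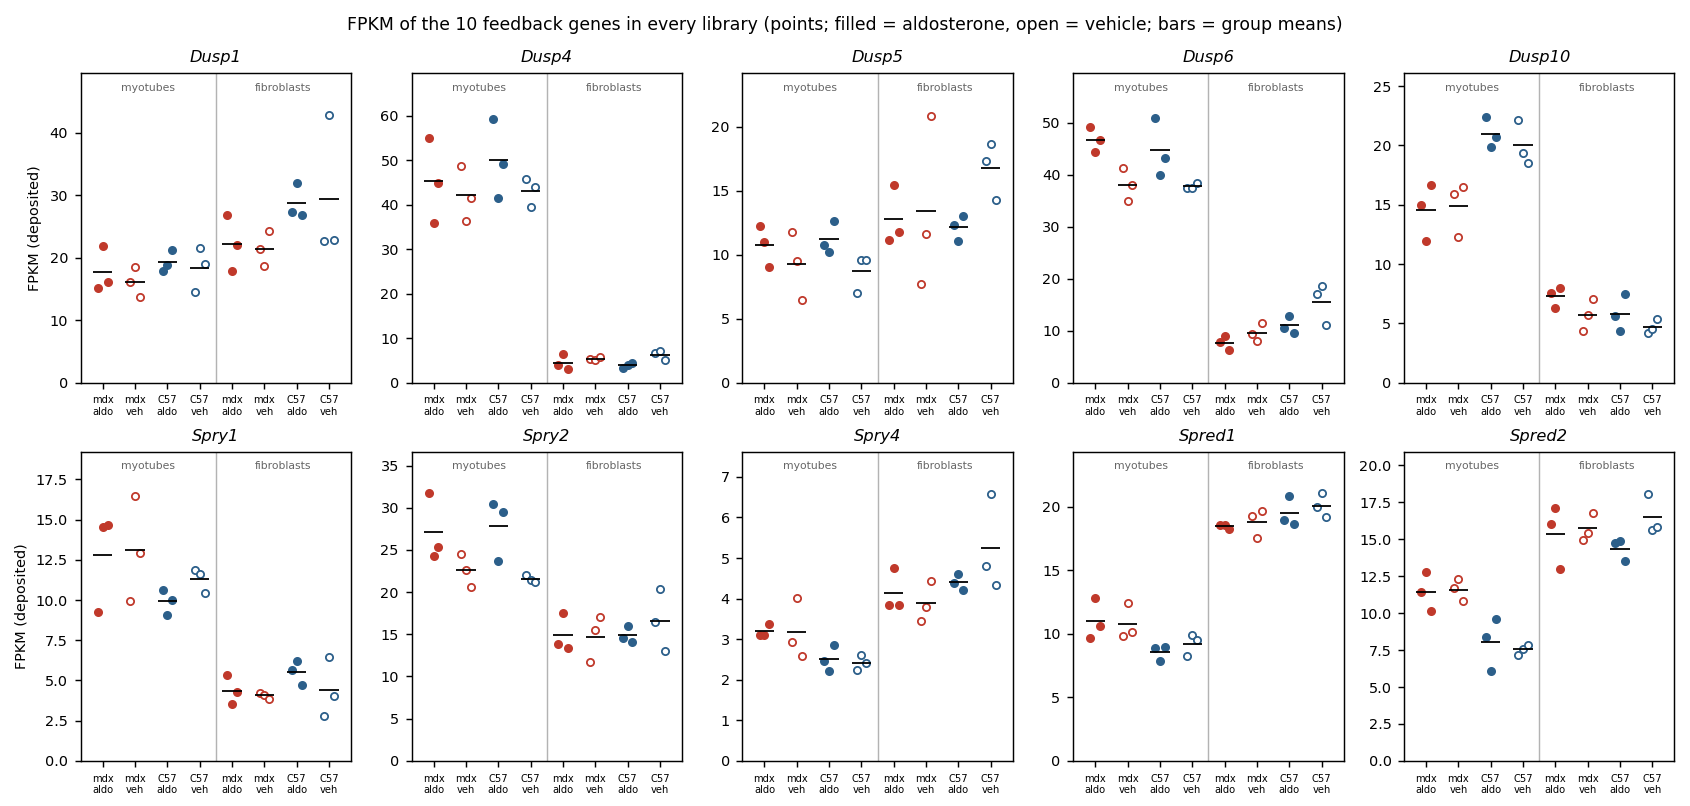
Deposited FPKM (linear axis from 0) of each of the 10 genes in every library, with 3 libraries per group, points filled for aldosterone and open for vehicle, and bars at group means. Dusp4, Dusp6, Dusp10, Spry1 and, narrowly, Spry2 are higher in every myotube library than in any fibroblast library, and Spred1 and, narrowly, Spred2 are lower.

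Set against fibroblasts in vehicle medium, vehicle-treated myotubes held more Dusp4, Dusp6, Dusp10 and Spry1 and less Spred1 and Spred2 in both genotypes. The fibroblasts had spent 24 h in conditioned medium and the myotubes 15 h in fresh medium. Cell type and medium therefore cannot be told apart, and the cell type differences below include both. In bulk samples a change in the number of cells of a type and a change in RNA per cell cannot be told apart. Counts were tested with edgeR (quasi-likelihood test, p-values adjusted over all genes by Benjamini and Hochberg, threshold 0.05). In mdx cells 7 of the 10 members differed between myotubes and fibroblasts, and 70.5% of all 17864 genes tested did so. In C57 cells 9 of the 10 differed, against 74.7% of all genes. These shares of members are close to those of all genes. All myotube libraries lay above the fibroblast libraries for 5 members in mdx (36% of all genes) and 5 in C57 (38.3%), and below them for 3 in mdx (35.9%) and 5 in C57 (40.6%).

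Dusp4 encodes a nuclear phosphatase of ERK, JNK and p38 and lies at chr8:35274451-35287048 on the plus strand (mm39). It was at 48.6, 36.4 and 41.4 FPKM in mdx vehicle myotubes, against 5.35, 5.12 and 5.68 FPKM in mdx vehicle fibroblasts. In C57 cells it was at 45.8, 39.5 and 44.0 FPKM in vehicle myotubes, against 6.72, 7.18 and 5.02 FPKM in vehicle fibroblasts. Myotubes and fibroblasts did not overlap, and Dusp4 had the largest cell type difference of the 10. The log2 change, myotubes over fibroblasts, was 2.95 ± 0.23 in mdx (SE, adjusted p = 1.17e-09) and 2.72 ± 0.22 in C57 (adjusted p = 2.24e-09, edgeR).

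Dusp6 encodes a cytoplasmic phosphatase with a strong preference for ERK and lies at chr10:99099093-99103351 on the plus strand. It was at 41.3, 35.0 and 38.0 FPKM in mdx vehicle myotubes, against 9.27, 7.92 and 11.4 FPKM in mdx vehicle fibroblasts. In C57 it was at 37.5, 37.4 and 38.5 FPKM in vehicle myotubes, against 17.0, 18.6 and 11.1 FPKM in vehicle fibroblasts. The log2 change was 1.98 ± 0.17 in mdx (SE, adjusted p = 4.84e-09) and 1.22 ± 0.17 in C57 (adjusted p = 2.1e-06, edgeR). The cell types did not overlap in either genotype. Mean Dusp6 was 38.1 FPKM in mdx and 37.8 FPKM in C57 vehicle myotubes, and 9.54 FPKM in mdx and 15.6 FPKM in C57 vehicle fibroblasts.

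Dusp10, a phosphatase of JNK and p38 rather than ERK, was at 15.9, 12.3 and 16.5 FPKM in mdx vehicle myotubes, against 4.37, 5.67 and 7.05 FPKM in mdx vehicle fibroblasts. Its log2 change was 1.36 ± 0.18 in mdx and 2.04 ± 0.18 in C57 (SE, adjusted p = 1.4e-06 and 4.07e-09, edgeR). Spry1 was higher in myotubes by 1.66 ± 0.24 in mdx and by 1.31 ± 0.24 in C57 on the log2 scale (adjusted p = 4.87e-06 and 5.96e-05). The vehicle libraries of the cell types did not overlap for either gene in either genotype. Spry2, a Sprouty induced by many growth factors, was higher in mdx myotubes by 0.60 ± 0.16 (adjusted p = 0.00263). In C57 its log2 change of 0.32 ± 0.16 did not pass (adjusted p = 0.0749), although it passed with RLE scaling, with DESeq2 and without C57 vehicle fibroblast replicate 2 (adjusted p = 0.0323, 0.0277 and 0.0133).

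The Spred genes, whose proteins bring neurofibromin to the membrane to switch Ras off, ran the other way. Spred1 was at 9.83, 12.4 and 10.1 FPKM in mdx vehicle myotubes, against 19.2, 17.5 and 19.7 FPKM in mdx vehicle fibroblasts. Its log2 change was -0.82 ± 0.10 in mdx and -1.18 ± 0.10 in C57 (SE, adjusted p = 2.57e-07 and 9.2e-10, edgeR). Spred2 was at 11.7, 12.3 and 10.8 FPKM in mdx vehicle myotubes, against 15.0, 15.5 and 16.8 FPKM in mdx vehicle fibroblasts, a log2 change of -0.46 ± 0.13 (adjusted p = 0.00357). In C57 the Spred2 change was -1.19 ± 0.13 (adjusted p = 6.04e-08). Neither Spred gene overlapped between the cell types in either genotype. Of 24 ERK output genes tested, 2 were higher and 12 lower in mdx myotubes than in mdx fibroblasts, and 2 higher and 17 lower in C57 myotubes than in C57 fibroblasts. Of all genes, 35.5% were higher and 35.1% lower in mdx, and 36.7% higher and 38% lower in C57.

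Dusp1, Dusp5 and Spry4 were lower in C57 myotubes than in C57 fibroblasts, with log2 changes of -0.73 ± 0.22, -0.99 ± 0.28 and -1.17 ± 0.16 (SE, adjusted p = 0.00608, 0.0033 and 1.15e-06, edgeR). Dusp1 is an immediate early phosphatase of p38, JNK and ERK, and Dusp5 acts on ERK in the nucleus. In mdx cells the 3 changes were -0.43, -0.54 and -0.31 and did not pass (adjusted p = 0.0932, 0.0898 and 0.0849). The calls on Dusp5 and Spry4 in mdx turn on single libraries. Dusp5 passed at -0.78 without mdx vehicle myotube replicate 1 and at -0.81 without mdx vehicle fibroblast replicate 1 (adjusted p = 0.0378 and 0.00768, edgeR). Spry4 passed at -0.51 without mdx vehicle myotube replicate 2 and at -0.40 without mdx vehicle fibroblast replicate 1 (adjusted p = 0.00872 and 0.0494). The Dusp1 change in C57 leans on C57 vehicle fibroblast replicate 2, at 42.7 FPKM against 22.7 and 22.8 FPKM in the other replicates. Without that library it was -0.37 (adjusted p = 0.08). The annotated span of Dusp1, chr17:26724564-26781102 on the minus strand, overlaps Ergic1 on the other strand, which had 2027 to 11800 counts. The libraries are not directional, so reads in the overlap cannot be told apart.

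The cell type difference was then compared between the genotypes, in a test added after the values of each genotype had been seen. It called 0 of the 10 members and 0.23% of all genes by edgeR, where 41 genes passed and 2114 had an unadjusted p below 0.05. Spred2, Spry4 and Dusp6 had differences of 0.73 ± 0.18, 0.85 ± 0.23 and 0.76 ± 0.24 on the log2 scale, mdx minus C57 (SE, adjusted p = 0.0955, 0.109 and 0.185). DESeq2 called Spred2 and Spry4 (adjusted p = 0.0291 and 0.0423), and so did edgeR without mdx vehicle myotube replicate 3. Dusp10 had a difference of -0.68 ± 0.25 (adjusted p = 0.271).

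**Figure D2:**
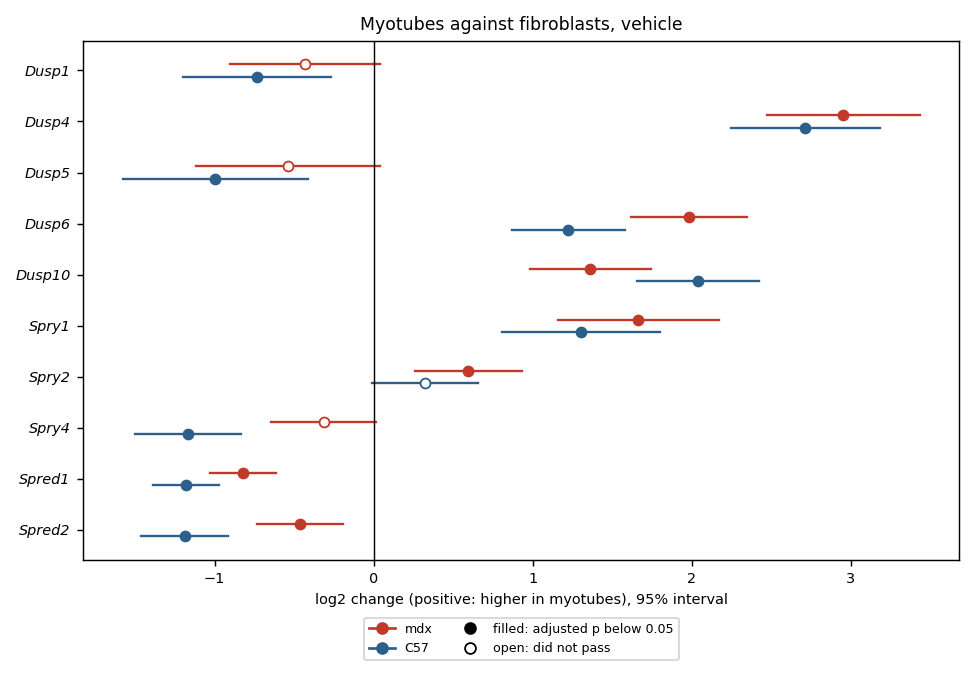
The log2 change of each gene between vehicle-treated myotubes and fibroblasts in vehicle medium (positive is higher in myotubes) with its 95% interval from edgeR, in mdx and in C57, with 3 libraries per group. Dusp4 lies farthest to the right in both genotypes, and Spred1 and Spred2 lie to the left of 0 in both.

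In myotubes, Dusp6, Spry2, Dusp5 and Dusp4 rose with aldosterone, on average over same-numbered cultures, in a fit with the culture as a block. That fit was planned as an alternative to the main fit, which had no block. The changes were small, from 1.11-fold for Dusp4 to 1.25-fold for Spry2. Same-numbered myotube cultures deviated together from their group means, so the comparison with the culture as a block is given beside the comparison without it. As the mean of both genotypes, 4 of the 10 members rose and 0 fell with the block, where 4.4% of all 15763 genes rose and 4.56% fell. Without the block 0 of the 10 passed by edgeR, where 34 genes (0.216%) passed and 1167 had an unadjusted p below 0.05, among them Dusp6 and Spry2. DESeq2 without the block called Dusp6 alone among the members (adjusted p = 0.0218).

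Dusp6 was at 145, 134 and 135 CPM in mdx aldosterone myotubes, against 122, 104 and 109 CPM in mdx vehicle myotubes. In C57 it was at 148, 117 and 126 CPM with aldosterone, against 109, 109 and 112 CPM with vehicle. The groups did not overlap in either genotype, and aldosterone was the higher in 6 of 6 same-numbered pairs. Its log2 change was 0.27 ± 0.04 with the block (SE, 95% interval 0.18 to 0.36, adjusted p = 0.000221, edgeR). Without the block it was 0.27 ± 0.07 (adjusted p = 0.171).

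Spry2, at chr14:106129381-106134253 on the minus strand, was at 62.5, 48.7 and 48.7 CPM in mdx aldosterone myotubes, against 48.2, 44.9 and 39.4 CPM in mdx vehicle myotubes. In C57 it was at 59.0, 46.2 and 57.5 CPM with aldosterone, against 42.5, 41.3 and 41.2 CPM with vehicle. The treated libraries lay above the vehicle libraries in both genotypes, and aldosterone was the higher in 6 of 6 pairs. Between treatments the log2 change was 0.32 ± 0.05 with the block (SE, 95% interval 0.21 to 0.43, adjusted p = 0.000214, edgeR) and 0.32 ± 0.09 without it (adjusted p = 0.233).

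Dusp5, whose window holds the CArG boxes above, was at 28.5, 26.1 and 20.5 CPM in mdx aldosterone myotubes, against 27.6, 22.3 and 14.7 CPM in mdx vehicle myotubes. In C57 it was at 24.7, 23.7 and 29.1 CPM with aldosterone, against 16.0, 22.1 and 22.2 CPM with vehicle. The groups did not overlap in C57 and overlapped in mdx. Aldosterone was the higher in 6 of 6 pairs, with log2 ratios between 0.05 and 0.63. On the log2 scale the change was 0.30 ± 0.07 with the block (SE, adjusted p = 0.00784, edgeR) and 0.29 ± 0.15 without it (adjusted p = 0.738).

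Dusp4 was at 142, 94.5 and 114 CPM in mdx aldosterone myotubes, against 126, 94.5 and 104 CPM in mdx vehicle myotubes. In C57 it was at 151, 107 and 126 CPM with aldosterone, against 116, 100.3 and 112 CPM with vehicle. The groups overlapped in both genotypes, and 5 of 6 pairs were higher with aldosterone. Its log2 change was 0.16 ± 0.04 with the block (SE, adjusted p = 0.026, edgeR), the smallest of the 4, and 0.16 ± 0.11 without it (adjusted p = 0.833). It did not pass when any of 4 cultures was left out, or with DESeq2 and the block (adjusted p = 0.0958).

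Dusp5, Dusp6 and Spry2 are the 3 members higher in 6 of 6 pairs, and 7% of all genes were. The other 6 members did not pass. Dusp1 and Spry1 had log2 changes of 0.11 ± 0.06 and -0.11 ± 0.06 with the block (SE, adjusted p = 0.327 and 0.268), and Spry1 was lower in 5 of 6 pairs. Dusp10, Spry4, Spred1 and Spred2 had log2 changes between -0.03 and 0.04, with 95% intervals that reached no further than -0.15 to 0.22. The median log2 change was 0.07 over the 10 members and 0.01 over all genes.

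**Figure D3:**
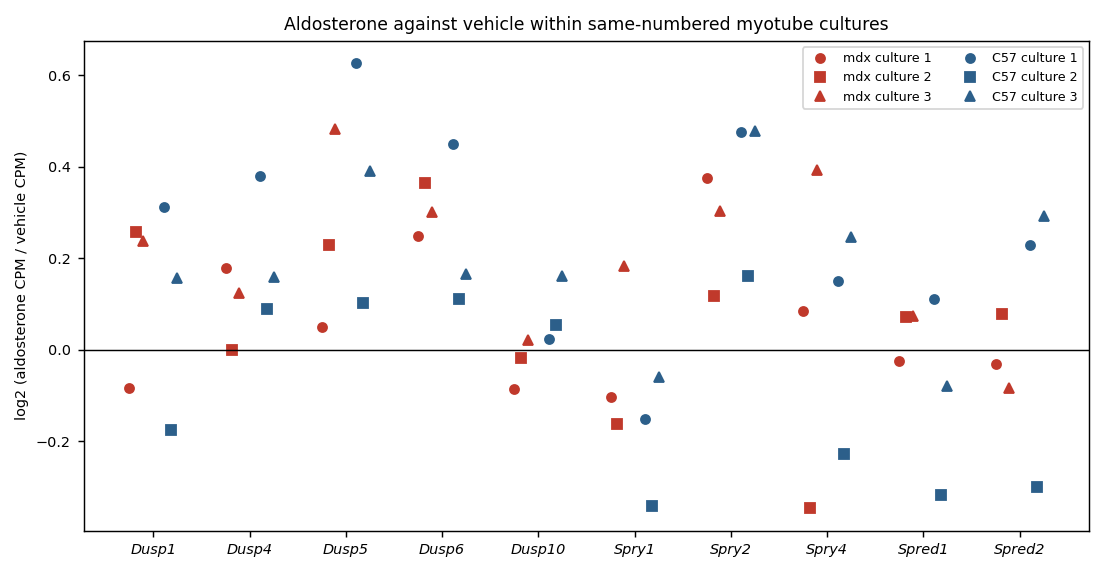
Log2 ratio of CPM, aldosterone over vehicle, within each of the 6 same-numbered myotube cultures (mdx and C57, cultures 1 to 3) for each gene, with 0 meaning no difference. The 6 points of Dusp5, Dusp6 and Spry2 are all above 0, and those of Spred1 fall on both sides.

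The treated libraries lay wholly above the vehicle libraries for 2 of the 10 members in mdx (2.98% of all genes) and 3 in C57 (7.27%). By genotype, 1 of the 10 members rose in mdx myotubes with the block, against 1.01% of all genes, and 4 of the 10 in C57 myotubes, against 2.52% of all genes. In mdx the gene was Dusp6, with a log2 change of 0.30 ± 0.06 (SE, adjusted p = 0.00837, edgeR), and Spry2 had 0.27 ± 0.07 (adjusted p = 0.0573). In C57 the changes were 0.37 ± 0.07 for Spry2, 0.24 ± 0.06 for Dusp6, 0.36 ± 0.10 for Dusp5 and 0.21 ± 0.06 for Dusp4 (SE, adjusted p = 0.00296, 0.0247, 0.0294 and 0.0492). In C57, DESeq2 with the block called Spry2 alone, with adjusted p = 0.0808 for Dusp6, 0.150 for Dusp5 and 0.180 for Dusp4, and edgeR with the block and RLE scaling did not call Dusp4 (adjusted p = 0.0594). Without the block 0 of the 10 passed in either genotype by edgeR or DESeq2. There edgeR called 0 genes (0%) in mdx, with 542 at an unadjusted p below 0.05, and 2 genes (0.0127%) in C57, with 783. The difference of the hormone effect between genotypes called 0 of the 10 and 7 genes in all with the block (0.0444%), 3 of them leukocyte markers described below, where 835 genes had an unadjusted p below 0.05. Without the block it called 0 genes (0%), where 152 had an unadjusted p below 0.05. For Dusp6 the difference, mdx minus C57, was 0.06 with a 95% interval of -0.12 to 0.25, and for Dusp5 it was -0.13 with an interval of -0.42 to 0.16.

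These calls rest on 3 cultures per genotype. For the mean of both genotypes, leaving out 1 culture at a time with the block gave 2 to 5 called members, and Dusp6 and Spry2 passed each time. Without mdx culture 3 only those 2 passed. In C57 alone Spry2 was the 1 member that passed without culture 1, and the changes of Dusp6, Dusp5 and Dusp4 were then 0.14, 0.24 and 0.12 (adjusted p = 0.387, 0.301 and 0.469). Without C57 culture 3 none passed, at 0.28 for Dusp6, 0.32 for Spry2, 0.35 for Dusp5 and 0.23 for Dusp4 (adjusted p = 0.0673, 0.0667, 0.177 and 0.124). In mdx alone Dusp6 was at 0.28 without culture 2 and at 0.31 without culture 3 and did not pass (adjusted p = 0.162 and 0.0993).

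Markers of other cells moved with the hormone as well. With the block, as the mean of both genotypes, 6 of 10 leukocyte markers rose, 3 of 8 tested fibroblast markers fell (Thy1, Dcn and Dpt), and 3 of 10 myotube markers fell (Myh3, Myh8 and Mymk). Of 8 myoblast markers 2 rose (Myf5 and Vcam1) and 1 fell (Itga7), of 5 tested smooth muscle and pericyte markers 2 fell (Abcc9 and Rgs5), and of 7 tested endothelial markers 1 rose (Emcn). Of 5 tested Schwann cell markers 0 passed. Without the block 0 markers of these lists passed.

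The summed level of 10 leukocyte markers was 204 CPM with aldosterone and 42.5 CPM with vehicle in mdx culture 2, and 5.35 and 12.4 CPM with aldosterone against 4.87 and 16.3 CPM with vehicle in mdx cultures 1 and 3. In C57 it was 12.2, 359 and 218 CPM with aldosterone, against 13.1, 493 and 287 CPM with vehicle. Between 0 and 6 of the 10 leukocyte markers were at 0 in a myotube library. Tyrobp, a signalling adaptor of myeloid cells, rose by 2.67 ± 0.37 in mdx and fell at -0.57 ± 0.16 in C57 (SE, adjusted p = 0.000133 and 0.0378, edgeR with the block). Tyrobp, C1qc and Csf1r were called for the difference of the hormone effect, at 3.24, 2.29 and 1.86 on the log2 scale, mdx minus C57. Without mdx culture 2, the mdx culture where the leukocyte sum differed most, the same 4 members passed for the mean of both genotypes. In mdx alone 0 members then passed, with Dusp6 at 0.28 (adjusted p = 0.162, edgeR with the block). The fit of both genotypes without mdx culture 2 kept C57 cultures 2 and 3, where the leukocyte sum also differed between treatments. It is therefore no test of leukocyte RNA, and the part of leukocyte RNA in the members' values was not tested.

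The 6 smooth muscle and pericyte markers summed to 165, 244 and 229 CPM in mdx aldosterone myotubes, against 209, 268 and 262 CPM in mdx vehicle myotubes. In C57 their sum was 239, 190 and 230 CPM with aldosterone, against 273, 247 and 259 CPM with vehicle. The 8 myoblast markers summed to 1056, 820 and 992 CPM in mdx with aldosterone, against 1129, 951 and 1090 CPM with vehicle. In C57 they summed to 1150, 929 and 1138 CPM with aldosterone, against 1232, 1186 and 1183 CPM with vehicle. Both sums were lower with aldosterone in 6 of 6 same-numbered pairs. The C57 groups narrowly did not overlap, at 239 against 247 CPM and 1150 against 1183 CPM where they came closest. These sums are scaled to library totals, without the TMM scaling of the members' CPM. The lack of overlap was not checked with TMM scaling. Abcc9, a subunit of a potassium channel, had log2 changes of -0.58 ± 0.06 in mdx and -0.37 ± 0.06 in C57 (SE, adjusted p = 1.26e-06 and 0.000231, edgeR with the block). The part of the other markers in these values was not tested.

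Other genes of the pathway were tested in the same comparison. With the block, 8.96% of all genes passed in either direction. As the mean of both genotypes, 10 of 24 tested ERK output genes rose and 2 fell, with a median log2 change of 0.18. The 4 with the smallest adjusted p were Fos, Egr1, Ier2 and Junb, immediate early genes, with log2 changes of 0.93 ± 0.08, 0.55 ± 0.05, 0.72 ± 0.07 and 0.45 ± 0.05 (SE, edgeR). Without the block 2 of the 24 passed, Fos and Ier2 (adjusted p = 0.00841 and 0.00983). Genes of this kind named next were chosen after their values were seen. Etv5, an ETS factor that is a common companion of Dusp6 and the Sprouty genes in fibroblast growth factor responses, rose by 0.15 ± 0.04 (adjusted p = 0.0175), and Etv4 at 0.18 ± 0.06 did not pass (adjusted p = 0.0974). Of 26 genes of the cascade from adaptor to ERK and its target kinases, 1 rose (Rps6ka5, 0.24 ± 0.06) and 0 fell.

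With the same block, of 8 other DUSP genes tested, 0 rose and 1 fell (Dusp22, -0.16 ± 0.05), and of 19 other feedback inhibitors 1 rose (Ptpn12, 0.14 ± 0.04) and 0 fell. Of 36 ligands and receptors of tyrosine kinases, 3 rose and 3 fell. Those that rose were Igf2 at 0.49 ± 0.06, Igf1 at 0.28 ± 0.08 and Hbegf, a ligand of the epidermal growth factor receptor, at 0.21 ± 0.04. Those that fell were Fgfr3 at -0.39 ± 0.07, Egf at -0.42 ± 0.11 and Erbb3 at -0.20 ± 0.05. Of 21 genes of the JNK and p38 branch 3 rose (Zfp36, Map2k3 and Mapk12). Of 14 steroid targets 4 rose, Per1 at 0.47 ± 0.06, Hsd11b1 at 0.91 ± 0.11, Fkbp5 at 0.46 ± 0.06 and Tsc22d3 at 0.22 ± 0.05, and 1 fell, the mineralocorticoid receptor gene Nr3c2 at -0.48 ± 0.13. Igf1, Egf and Nr3c2 were named after their values were seen. Without the block 2 of the 14 steroid targets passed, Fkbp5 and Per1 (adjusted p = 0.02 and 0.0344), and 0 genes passed of the other DUSP genes, other feedback inhibitors, cascade genes, ligands and receptors, and JNK and p38 branch.

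Between mdx and C57 myotubes, 0 of the 10 members passed under either treatment by edgeR. All members' intervals are drawn in the plot of mdx against C57 changes. With vehicle 57 genes (0.362%) passed and 2273 had an unadjusted p below 0.05, and with aldosterone 49 genes (0.311%) passed and 2469 had one. Without the filter on low counts 1 member passed in each, Spred2 with vehicle and Dusp10 with aldosterone. DESeq2 called Spred2 with vehicle and both genes with aldosterone.

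Spred2 was at 50.9, 53.8 and 45.8 CPM in mdx vehicle myotubes, against 30.7, 32.5 and 33.7 CPM in C57 vehicle myotubes. With aldosterone it was at 49.8, 56.8 and 43.2 CPM in mdx, against 35.9, 26.4 and 41.3 CPM in C57. The mdx libraries lay above the C57 libraries under both treatments. The fitted log2 change was 0.64 ± 0.15 with vehicle (SE, adjusted p = 0.113, edgeR) and 0.53 ± 0.15 with aldosterone (adjusted p = 0.157).

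Dusp10 was at 45.6, 35.5 and 46.1 CPM in mdx vehicle myotubes, against 62.2, 54.5 and 52.6 CPM in C57 vehicle myotubes. With aldosterone it was at 43.0, 35.0 and 46.8 CPM in mdx, against 63.2, 56.6 and 58.8 CPM in C57. The mdx libraries lay below the C57 libraries under both treatments. The log2 change was -0.41 ± 0.12 with vehicle (SE, adjusted p = 0.202, edgeR) and -0.52 ± 0.12 with aldosterone (adjusted p = 0.128).

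Spred1 also lay above C57 in every mdx library under both treatments, at 0.24 ± 0.13 and 0.38 ± 0.13 on the log2 scale (adjusted p = 0.409 and 0.21). Spry4 did so with aldosterone alone, at 0.37 ± 0.16 (adjusted p = 0.295). With vehicle, 2 of the 10 members thus lay wholly above and 1 wholly below C57, where 10% and 9.45% of all genes did. With aldosterone 3 lay above and 1 below, where 9.73% and 8.43% did. Dusp6, Dusp4 and Spry2, the most abundant members, had log2 changes between -0.13 and 0.09. Of 24 ERK output genes 1 passed with vehicle and 2 with aldosterone, with Kcnn4, a calcium-activated potassium channel gene, higher by 1.07 and 0.94, and Fos lower at -0.76 with aldosterone (adjusted p = 0.0192 and 0.0402 for Kcnn4, and 0.0402 for Fos, edgeR). With the replicate number as a block 0 of the 24 passed under either treatment (adjusted p = 0.110 for Fos with aldosterone).

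Markers of other cells moved beside these values. Between mdx and C57 myotubes, 0 of 8 tested fibroblast markers and 0 of 10 leukocyte markers passed under either treatment, with median log2 changes of 1.86 and -1.53 with aldosterone. The summed level of the 10 fibroblast markers was 956, 3102 and 1170 CPM in mdx vehicle myotubes, against 289, 906 and 608 CPM in C57 vehicle myotubes. With aldosterone it was 860, 3321 and 1627 CPM in mdx, against 343, 540 and 637 CPM in C57. The mdx libraries of replicate 2, which had the most fibroblast marker RNA, had the highest Spred1 and Spred2 and the lowest Dusp10 of the mdx myotubes under each treatment. Spred1 and Spred2 were higher in fibroblasts than in myotubes and Dusp10 was lower there, as given above. Replicate 1 of mdx vehicle and replicate 2 of C57 vehicle had similar fibroblast sums, 956 and 906 CPM. Spred2 was at 50.9 CPM in the first and 32.5 CPM in the second, and Dusp10 at 45.6 and 54.5 CPM. Spred1 was at 62.9 and 62.0 CPM in these 2 libraries. Summed over 8 endothelial markers, the level was 35.7, 38.2 and 44.6 CPM in mdx vehicle myotubes, against 77.7, 173 and 132 CPM in C57 vehicle myotubes. With aldosterone it was 35.4, 60.0 and 66.9 CPM in mdx, against 100.5, 213 and 145 CPM in C57. The genotypes did not overlap in this sum, which was the lower in mdx, and 0 to 1 of the 8 markers were at 0 in a library. Of 7 tested endothelial markers 0 passed under either treatment. With the replicate number as a block and vehicle, the endothelial markers Pecam1 and Emcn and the leukocyte marker Csf1r were lower in mdx, at -1.79, -1.89 and -4.02 (adjusted p = 0.0441, 0.0431 and 0.0430, edgeR). The part of fibroblast, leukocyte and endothelial RNA in the genotype values was not tested.

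**Figure D4:**
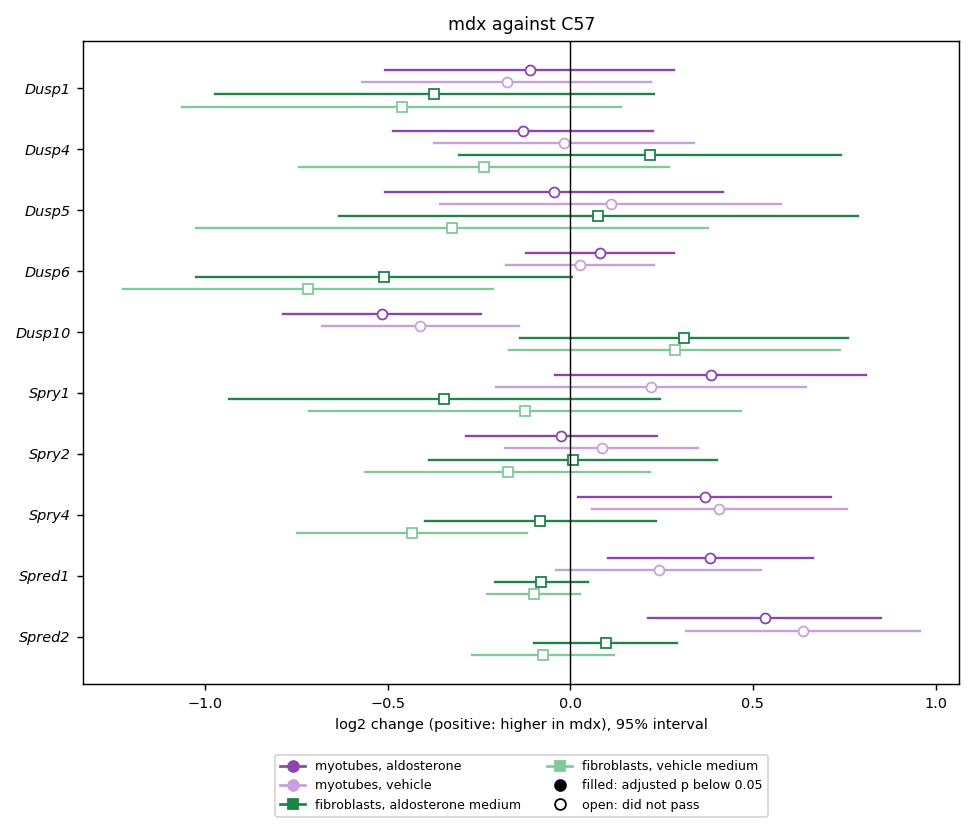
The log2 change between mdx and C57 (positive is higher in mdx) with its 95% interval from edgeR, with 3 libraries per group. Circles are myotubes under aldosterone or vehicle, and squares are fibroblasts in medium of aldosterone-treated or vehicle-treated myotubes. None of the 10 genes passed the adjusted threshold, and Spred2 is above 0 and Dusp10 below 0 in myotubes under both treatments.

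In fibroblasts, 0 of the 10 members passed by edgeR in either medium comparison or either genotype comparison. For the medium of aldosterone-treated myotubes against the medium of vehicle-treated myotubes, as the mean of both genotypes, 2 genes of 16671 passed (0.012%) and 2540 had an unadjusted p below 0.05. In mdx and in C57 taken alone 0 genes (0%) passed, with 818 and 1996 at an unadjusted p below 0.05. DESeq2 without the block called 0 members in these 3 comparisons. Dusp4, Dusp6 and Dusp10 had the smallest p among the members.

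Dusp4 was at 11.6, 19.0 and 9.21 CPM in mdx fibroblasts with aldosterone medium, against 16.2, 15.3 and 17.0 CPM with vehicle medium. In C57 fibroblasts it was at 10.1, 11.5 and 13.02 CPM with aldosterone medium, against 20.3, 21.7 and 15.1 CPM with vehicle medium. The groups did not overlap in C57, and in mdx replicate 2 ran against the other replicates. Its log2 change was -0.50 ± 0.16 as the mean (SE, adjusted p = 0.23, edgeR), and -0.27 ± 0.23 in mdx and -0.72 ± 0.23 in C57 (adjusted p = 0.918 and 0.345). Without mdx aldosterone replicate 2 it was -0.68 (adjusted p = 0.00414), and 950 genes passed in place of 2. With the replicate number as a block it was -0.51 as the mean by edgeR (adjusted p = 0.243), and DESeq2 with the block called it as the mean (-0.53, adjusted p = 0.0201) and in C57 (-0.71, adjusted p = 0.038). Both calls treat same-numbered C57 fibroblast libraries as pairs, although these did not deviate together from their group means (correlations of -0.02, 0.12 and 0.09).

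The summed level of 6 smooth muscle and pericyte markers was 326, 405 and 297 CPM in mdx fibroblasts with aldosterone medium, against 396, 383 and 369 CPM with vehicle medium. In C57 fibroblasts it was 343, 373 and 313 CPM with aldosterone medium, against 491, 431 and 416 CPM with vehicle medium. The groups did not overlap in C57, and mdx replicate 2 ran against the other replicates. Neither trait is particular to these markers. In C57, 10.7% of all genes lay wholly below the vehicle libraries. Leaving out mdx aldosterone replicate 2 changed the calls of many genes, as given above. Of the 6 markers 0 passed for the mean, and the part of these cells in the Dusp4 values was not tested.

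The columns of 3 fibroblast libraries stand first in the deposited file, out of the order of the others, and these are the deepest. They are mdx aldosterone replicate 2, mdx vehicle replicate 2 and C57 vehicle replicate 1. Without them the Dusp4 change was -0.68 (adjusted p = 0.00606), and 774 genes passed. The summed myotube markers were at 153 CPM in mdx aldosterone replicate 2 and at 125 CPM in C57 vehicle replicate 1, the 2 highest of the fibroblast libraries, and at 21.6 CPM in mdx vehicle replicate 2. Dusp4 was the member with the largest excess in myotubes, and the part of myotube RNA in its fibroblast values was not tested.

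Dusp6 was at 26.7, 30.6 and 21.2 CPM in mdx fibroblasts with aldosterone medium, against 32.1, 27.1 and 39.2 CPM with vehicle medium. In C57 fibroblasts it was at 35.8, 44.0 and 32.8 CPM with aldosterone medium, against 58.5, 64.4 and 38.2 CPM with vehicle medium. The groups overlapped in both genotypes, and the log2 change of the mean was -0.42 ± 0.16 (SE, adjusted p = 0.279, edgeR). Dusp10 had a log2 change of 0.32 ± 0.14 (adjusted p = 0.33). The 95% interval of Spred1 was -0.14 to 0.04 and that of Spry2 was -0.36 to 0.19. In C57 3 of the 10 members (Dusp4, Dusp5 and Spred2) lay wholly below the vehicle libraries, where 10.7% of all genes did, and in mdx 0 did, where 4.66% of all genes did. The difference of the medium effect between genotypes called 0 members and 0 genes (0%) by edgeR, where 391 genes had an unadjusted p below 0.05.

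**Figure D5:**
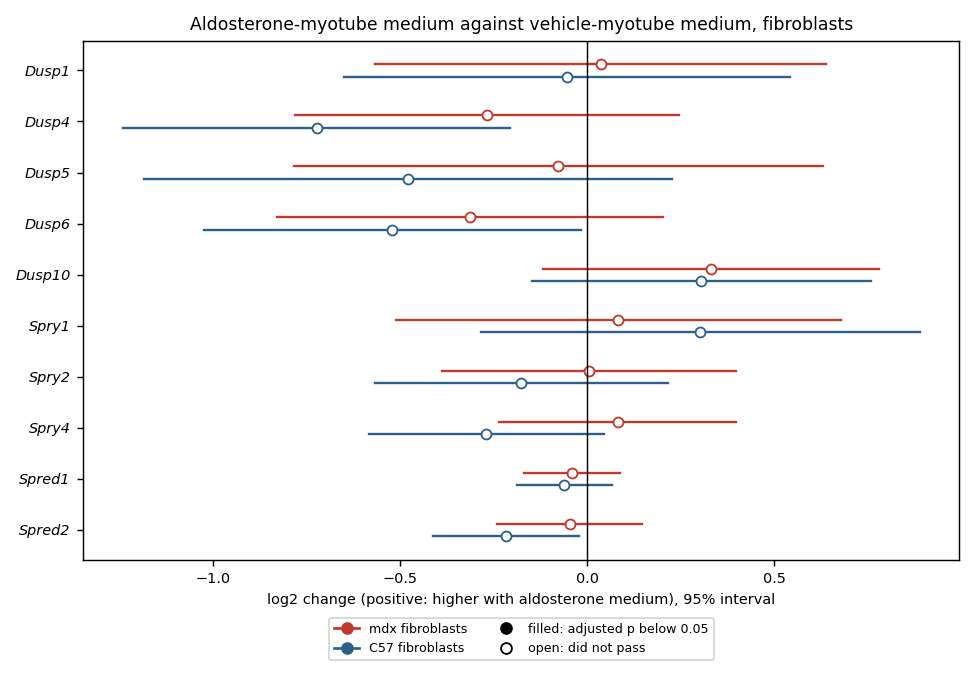
The log2 change in fibroblasts between medium of aldosterone-treated and of vehicle-treated myotubes (positive is higher with aldosterone medium) with its 95% interval from edgeR, in mdx and in C57, with 3 libraries per group. None of the 10 genes passed the adjusted threshold, and the Dusp4 interval in C57 is the one farthest below 0.

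Between mdx and C57 fibroblasts, the median log2 change of the 10 members was -0.20 in vehicle medium, against 0.0045 over all genes. In aldosterone medium it was -0.04, against 0.0072 over all genes. With vehicle medium 9 of the 10 members had a negative change and Dusp10 a positive one. C57 vehicle replicate 2, a reference library here, had the highest level of 7 of the 10 members among the 12 fibroblast libraries. Many members also went together across these libraries, as given below, so their signs are not independent. In vehicle medium 0 members lay wholly below C57, where 8.55% of all genes did, and 0 wholly above, where 8.68% did. With 184 genes (1.1%) passing and 1997 at an unadjusted p below 0.05, 0 of the 10 passed by edgeR, and DESeq2 called Dusp6. Dusp6 was at 32.1, 27.1 and 39.2 CPM in mdx vehicle fibroblasts, against 58.5, 64.4 and 38.2 CPM in C57 vehicle fibroblasts. Its log2 change was -0.72 ± 0.22 (SE, adjusted p = 0.211), and that of Spry4 was -0.43 ± 0.15 (adjusted p = 0.211). In aldosterone medium 205 genes (1.23%) passed and 0 members did, and 2308 genes had an unadjusted p below 0.05. There Dusp1, Dusp6 and Spred1 lay wholly below C57, where 9.58% of all genes did, and Dusp6 had a log2 change of -0.51 ± 0.23 (adjusted p = 0.365).

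Across the 12 myotube libraries the members did not follow 1 common course. The median Pearson correlation of log2 CPM over the 45 pairs of members was 0.13, and 11 pairs were over 0.5. Dusp6 went with Spry2 (0.86) and Spry4 with Spred2 (0.83), while the lowest value was -0.91. It belonged to Dusp10 with Spred1. Across the 12 fibroblast libraries the median was 0.41 and 19 of 45 pairs were over 0.5, led by Dusp6 with Spred1 (0.88) and Spry2 with Spry4 (0.86). The points share culture, genotype and treatment, so these values are descriptions. The protein-coding genes with the pattern most like the mean standardized profile of the 10 members in myotubes, of 10297 with a mean of at least 5 CPM, were Nfkb1 (0.93), Stt3b (0.93), Bcl2l1 (0.92), Ubqln2 (0.92) and Clp1 (0.92). In fibroblasts, of 10570, they were Kbtbd2 (0.93), Arc (0.93), Vmp1 (0.90), Ptgs2 (0.90) and Rbpms2 (0.89).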

How the data were processed

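Poly(A) RNA of 24 libraries, 8 groups of 3, was sequenced from non-directional libraries, per the labels' protocols. The authors deposited gene counts made with featureCounts 1.5.0-p3 on build mm39, per the submitters' processing notes, and FPKM beside them. No source names the aligner or the annotation release. The deposited counts were tested with edgeR 4.0.16 (R 4.3.3): TMM scaling, filterByExpr, robust quasi-likelihood test, Benjamini-Hochberg adjustment over all genes tested (15763 in myotubes, 16671 in fibroblasts, 17864 across cell types), threshold 0.05. CPM of single genes were computed from the counts within a cell type, with TMM scaling. Summed marker levels are counts over the library total without TMM scaling. Counts of members and genes without overlap between cell types used CPM scaled over all 24 libraries. Standard errors were derived from the log2 change and the F statistic. The deposited FPKM served for levels between genes and between cell types. The edgeR fit of the hormone mean in myotubes, with and without the block, was tried on simulated counts that held no culture differences. The other fits were not tried on simulated data. DESeq2 1.42.0, RLE scaling, no filter, a replicate block and left-out libraries were tried as alternatives.

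Replicate numbers are the labels' own. Deviations from group means of same-numbered libraries correlated at 0.70, 0.50 and 0.36 between C57 myotube treatments and at 0.67, 0.61 and 0.48 between mdx ones. The numbers were therefore taken to pair myotube cultures. Differently numbered mdx libraries correlated at -0.52 to -0.16. In C57, aldosterone library 3 correlated at 0.35 with vehicle library 2, and aldosterone library 2 at 0.26 with vehicle library 3. The pairing of C57 culture 3 is thus less sure than that of the others. In fibroblasts same-numbered libraries correlated at -0.02, 0.12 and 0.09 in C57 and at 0.17, 0.30 and 0.11 in mdx. These values show no pairing in C57 fibroblasts and a weak one in mdx. The fibroblast fits with the block used the numbers of both genotypes all the same.

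The members and gene lists were chosen with earlier results of these data known. All 10 members are named, and from each other list up to 4 called genes by smallest adjusted p; further genes of a list, marker genes included, were named after their values were seen. Genes of like pattern were the 5 protein-coding genes per cell type with the highest correlation to the members' mean standardized profile. The difference of the cell type change between genotypes, the fits without 1 culture, those without the 3 first-placed fibroblast libraries, and the block with RLE scaling or DESeq2 were added after seeing the data.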

Additional observations from a re-analysis of the deposited data

How the results depend on the processing

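The replicate block moved the count of called members from the hormone in myotubes to 4 as the mean of both genotypes, 4 in C57 and 1 in mdx, against 0 in each without it. With the block, leaving out 1 culture gave 2 to 5 called members for the mean, 0 to 5 in C57 and 0 to 1 in mdx, and in fibroblasts 0 to 1 for the mean and 0 to 0 in each genotype. The block with DESeq2 called 1 member in C57 myotubes (Spry2), and Dusp4 in fibroblasts, 1 member each for the mean (log2 change -0.53, adjusted p = 0.0201) and in C57 (-0.71, adjusted p = 0.038). The fibroblast calls use C57 numbers that were not seen to pair libraries. The block changed no other call of a member. Same-numbered mdx and C57 myotube libraries correlated at 0.33, 0.33 and -0.16 with aldosterone and at 0.06, 0.25 and -0.09 with vehicle. Between genotypes in fibroblasts the values lay between -0.18 and 0.12, and between cell types between 0.008 and 0.16. Whether the numbers pair libraries across genotypes in myotubes is not settled by these values.

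DESeq2 without the block called 1 member for the myotube hormone mean (Dusp6), 1 for mdx against C57 vehicle myotubes (Spred2, adjusted p = 0.00963), 2 with aldosterone (Dusp10 and Spred2, adjusted p = 0.0179 and 0.0387), 1 in vehicle fibroblasts (Dusp6, adjusted p = 0.0105) and 2 for the cell type difference between genotypes. Without the filter on low counts 1 member passed between mdx and C57 myotubes under each treatment (Spred2, adjusted p = 0.0161, with vehicle, and Dusp10, adjusted p = 0.0237, with aldosterone). Without the 3 first-placed fibroblast libraries 1 member passed for the medium (Dusp4). Without the block, leaving out 1 library gave 9 to 9 called members between C57 cell types, 7 to 9 between mdx cell types, 0 to 2 for their difference, 0 to 1 for the fibroblast medium mean and 0 to 0 elsewhere. With 1 library left out, the cell type difference between genotypes ran between -0.062 and 0.46 for Dusp1 and between -0.0073 and 0.60 for Spry1, both lowest without C57 vehicle fibroblast replicate 2, and neither passed in any of these fits. The cause of these shifts was not tested. Precision is limited by 3 libraries per group: without the block, the 95% interval of the hormone change of Dusp5 in myotubes was -0.04 to 0.62.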
